A study of Mus musculus with 12 samples.

Results

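Granulocyte-macrophage progenitors (GMP) that had lost Lamtor2 were compared with control GMP in 6 of the 12 arrays of the series, 3 of them from Lamtor2-deleted mice (GMP KO) and 3 from control mice (GMP WT). All probe sets of the deposited table that carry exactly 1 gene symbol were taken, 21640 of 34760, and they stood for 19937 genes. RNA of cells sorted from bone marrow at day 14 after pIpC had been measured on Affymetrix arrays, in GMP (Lin- Sca1- c-kit+ CD34+ FcγR+) and, on the other 6 arrays, in LSK cells (Lin- Sca1+ c-kit+), the population that holds stem cells and multipotent progenitors. GMP KO came from 3 C57BL/6J mice with Mx-Cre and floxed Lamtor2 alleles (f/f), and GMP WT from 3 C57BL/6J mice with Mx-Cre and Lamtor2 wt/wt. Strain labels of every mouse also carry the entry Mx1-Cre wt/wt, and what wt/wt refers to in it is not stated. Deletion had been checked by PCR, per the design text of the series, and the RNA of the few sorted cells had been amplified before labelling. By the genotypes given, both groups carried Mx-Cre, and both had the i.p. injection of pIpC. pIpC is a synthetic RNA that mimics a viral infection and induces interferon, and Mx-Cre is switched on by interferon in many cell types of the marrow and of other organs, so that deletion was not limited to GMP. Age, sex and the mouse shared by GMP and LSK samples, if any, are not stated. No label says how the arrays of a group map to its 3 mice, so the p-values measure the spread between arrays.

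Lamtor2 is a subunit of Ragulator, a scaffold on the membrane of late endosomes and lysosomes. Ragulator holds the Rag GTPases, through which amino acids bring the kinase mTORC1 to the lysosome, and it also anchors MEK and ERK there. Folliculin and its partners Fnip1 and Fnip2 act on the Rag GTPases and so decide whether the transcription factors TFEB and TFE3, which drive lysosomal genes, are kept out of the nucleus. GMP are fast-cycling marrow cells that make the serine proteases of neutrophil granules and give rise to neutrophils and to monocytes and their macrophage descendants.

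The GMP label was checked on markers, by the difference between GMP WT and LSK WT. Fcgr3, an Fc receptor of the sort, was 4.20 higher in GMP WT (log2, SE 0.23, limma adjusted p = 7.09e-08), the granule protease Elane 4.81 (SE 0.58), the granule protease Ctsg 3.09 (SE 0.25), the peroxidase Mpo 1.47 (SE 0.14) and the lineage factor Cebpa 1.63 (SE 0.15). Flt3, a receptor of multipotent progenitors, was lower by -2.89 (SE 0.14). The T cell chain Cd3e (-0.07) and the B cell chains Cd79a (-0.38) and Ms4a1 (0.07) did not pass. Sca1 (Ly6a), the marker absent from GMP by the sort, has no probe set with a single symbol here.

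The 3 KO arrays spread more widely than the 3 WT arrays. The root mean square deviation from the group mean was 0.218 (log2) in GMP KO and 0.116 in GMP WT. GMP KO replicate 1 stood apart, with an estimated array weight of 0.19 against 0.68 and 1.18 for GMP KO replicates 2 and 3. In that array 90 genes lay more than 1 log2 unit above both other KO arrays and 263 lay as far below. The genes of neutrophil secondary granules and maturation were high in it, by a median of 0.92 over the mean of the other KO arrays, and the genes of mast cells, basophils and eosinophils were low, by a median of -0.48. Camp, an antimicrobial peptide of secondary granules, read 10.40, 7.74 and 7.53 in GMP KO replicates 1 to 3 and 10.58, 7.79 and 9.34 in GMP WT replicates 1 to 3. Secondary granule genes therefore varied within the WT group as well, where GMP WT replicate 1 was high and GMP WT replicate 2 low. Counts without GMP KO replicate 1 are given below beside each group of genes that the results lead with.

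Lamtor2 itself read 5.53, 5.12 and 4.95 in GMP KO and 10.80, 10.82 and 10.61 in GMP WT. It fell by 5.54 (SE 0.17, limma adjusted p = 8.74e-10), and an exact two-sided permutation test gave p = 0.1, the smallest that 3 arrays against 3 allow. The labels of the 6 arrays were thus borne out by the targeted gene. The table holds no detection calls, so differences against very low readings can be understated.

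**Figure D1:**
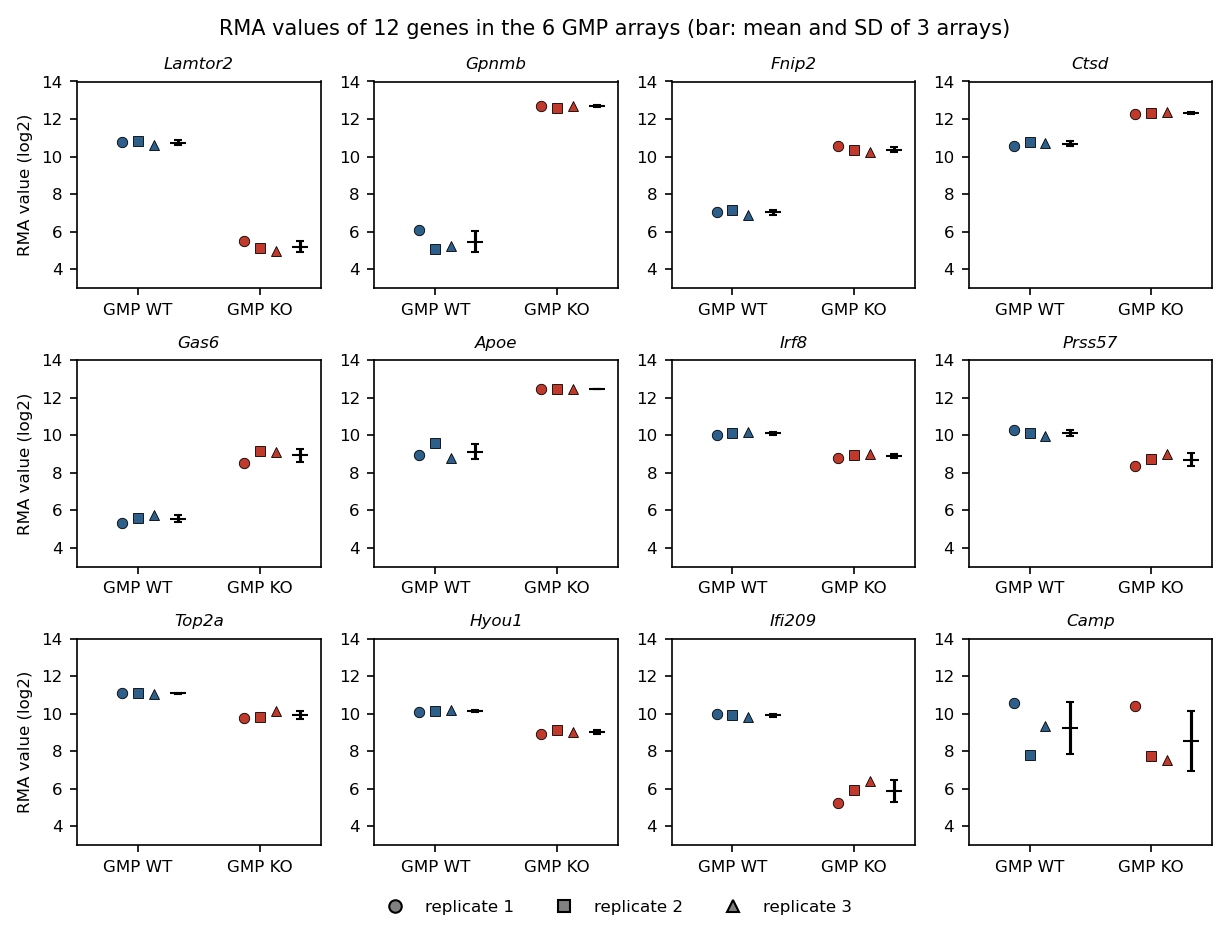
RMA values (log2, vertical axis) of 12 genes in the 3 GMP WT arrays (blue) and the 3 GMP KO arrays (red), with a marker shape for each replicate and a black bar for the mean and SD of 3 arrays. Lamtor2, Irf8, Prss57, Top2a, Hyou1 and Ifi209 were lower in every KO array than in every WT array, Gpnmb, Fnip2, Ctsd, Gas6 and Apoe were higher, and the Camp arrays of both groups overlapped, from 7.53 to 10.58.

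Of the 19937 genes, 3212 passed an adjusted p of 0.05 (16.1%), of which 1153 were higher in KO (5.78%) and 2059 were lower (10.3%). At least a 2-fold change (1 log2 unit) besides was met by 319 higher genes (1.60%) and 163 lower ones (0.818%), so the decreases were more numerous and the increases reached 2-fold more often. The KO and WT arrays did not overlap in 5901 genes (29.6%), and 3168 of the 3212 were among them. Without GMP KO replicate 1 the counts were 1241 higher (6.22%) and 1847 lower (9.26%), and 2566 of the 3212 genes passed again in the same direction. Without GMP WT replicate 2 the lower count was 1058 and the higher count 795. The split depended on scaling: centring each array on its median gave 913 higher and 2781 lower genes. The median change over all genes was 0.01 as deposited and -0.05 after centring. Changes of gene lists below are set beside these background shares and beside that median, 0.01.

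**Figure D2:**
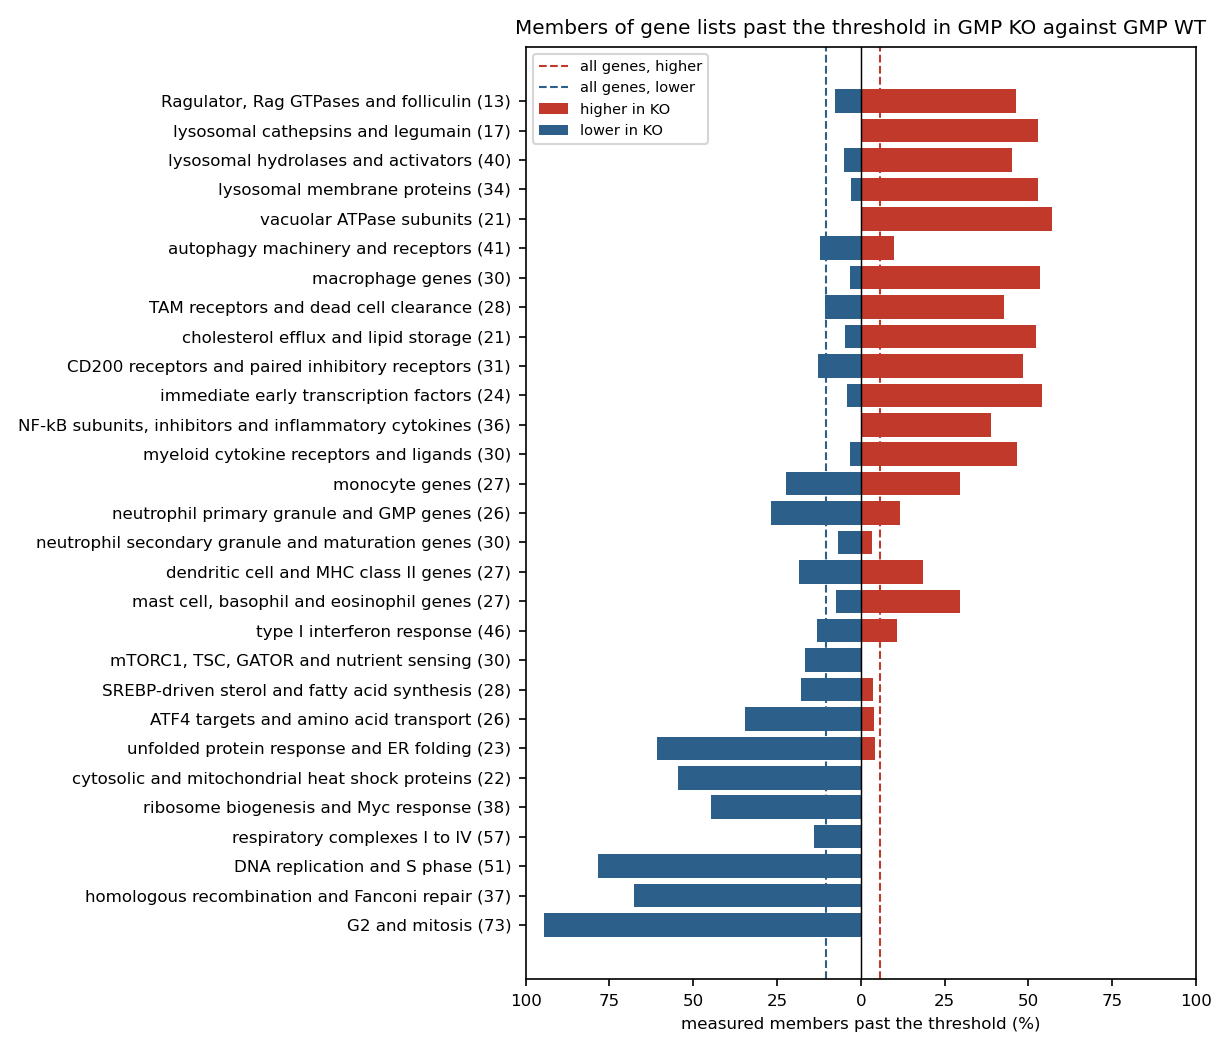
Share of the measured members of 29 gene lists (number in brackets) that passed the adjusted p of 0.05, with members higher in KO to the right (red) and members lower in KO to the left (blue), in percent. Dashed lines mark the same shares over all 19937 genes, 5.78% higher and 10.3% lower. Lysosomal, macrophage, lipid and immediate early lists lie far to the right, and lists of cell division, DNA repair and protein folding lie far to the left.

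Around Ragulator, folliculin, both of its partners and some of the Rag GTPases rose. Fnip2 read 10.54, 10.33 and 10.25 in KO and 7.06, 7.15 and 6.89 in WT, and rose by 3.34 (SE 0.15, adjusted p = 2.57e-08), a 10.1-fold change. Its partner Fnip1 rose by 0.79 (SE 0.10) and Flcn, folliculin itself, by 0.60 (SE 0.12). Of the Rag GTPases, Rragd rose by 1.89 (SE 0.26), from 4.37 to 5.01 in WT to 6.15 to 6.95 in KO, and Rragc by 0.81 (SE 0.12). Lamtor1 rose by 0.51 (SE 0.12, adjusted p = 0.013), a call that ended without GMP WT replicate 3 (adjusted p = 0.0609). Lamtor3 (0.35), Lamtor4 (-0.19) and Lamtor5 (-0.21) did not pass. Of these, Lamtor3 passed without GMP KO replicate 2 and under some other settings, repeated quantile normalization among them. In a limma fit of all probe sets, a further probe set of Lamtor3 rose by 0.36 (adjusted p = 0.0213). A further probe set of Lamtor1 rose by 0.65 (adjusted p = 0.00582) in that fit. In all, 6 of the 13 measured genes of Ragulator, the Rag GTPases and folliculin rose and 1, Lamtor2, fell, with a median of 0.35. Without GMP KO replicate 1 the counts were the same, 6 and 1.

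Of the 4 MiT/TFE transcription factors, Tfeb rose by 0.41 (SE 0.09, adjusted p = 0.0093) and Tfec fell by 0.66 (SE 0.13, adjusted p = 0.00438). Tfe3 (0.32, adjusted p = 0.0695) and Mitf (0.27, adjusted p = 0.11) read higher in KO without passing. A further probe set of Mitf did not move (-0.03, limma adjusted p = 0.899). The call on Tfec ended when quantile normalization was repeated (adjusted p = 0.0533). The effect on Tfeb was higher in GMP than in LSK by 0.49 (adjusted p of the difference 0.04).

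Lysosomal genes were higher in KO GMP across their functional classes. Of 40 hydrolases and their activators 18 rose and 2 fell, with a median of 0.32, of 17 cathepsins and legumain 9 rose and none fell, with a median of 0.61, of 21 subunits of the vacuolar ATPase 12 rose and none fell, with a median of 0.34, and of 34 membrane proteins 18 rose and 1 fell, with a median of 0.42. Without GMP KO replicate 1 the higher counts were 20, 9, 11 and 21 in the same order. When only the 6 GMP arrays were fitted, 7 vacuolar ATPase subunits passed. All 3 KO arrays lay above all 3 WT arrays in the mean of each of these lists.

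The increases covered proteases, lipid-degrading enzymes and sugar-cleaving enzymes. Ctsd, the major aspartic protease of lysosomes, read 12.29, 12.32 and 12.38 in KO and 10.56, 10.80 and 10.71 in WT, and rose by 1.64 (SE 0.15, adjusted p = 1.6e-05). The cysteine proteases Ctsb and Ctss rose by 2.05 (SE 0.20) and 2.61 (SE 0.27), and Ctsl and Ctsa by 1.46 and 1.07. Psap, the precursor of the saposins that help to degrade sphingolipids, read 12.27, 12.12 and 12.31 in KO and 10.25, 10.13 and 9.85 in WT, and rose by 2.16 (SE 0.19). Grn, progranulin, rose by 1.44 (SE 0.11), Gla, which cleaves galactose from glycolipids, by 1.27 (SE 0.15), the glucosidase Gaa by 0.72 (SE 0.10) and Tpp1, a peptidase, by 0.95 (SE 0.13). The arylsulfatase Arsb fell by 0.72 (SE 0.11) and the carboxypeptidase Cpq by 1.31 (SE 0.23).

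Among the membrane proteins, the mucolipin family of lysosomal cation channels rose as a whole. Mcoln1 read 8.78, 8.78 and 8.97 in KO and 7.86, 7.86 and 7.87 in WT, and rose by 0.98 (SE 0.09, adjusted p = 9.65e-06). Mcoln3 rose by 3.50 (SE 0.30) and Mcoln2 by 1.88 (SE 0.18). The cholesterol exporter Npc1 rose by 1.74 (SE 0.12) and Lamp1, a structural protein of the lysosomal membrane, by 0.67 (SE 0.11). The effect was higher in GMP than in LSK by 0.85 for Mcoln1 and by 2.46 for Mcoln3 (adjusted p of the difference 0.00216 and 0.00503), and Mcoln2 and Npc1 differed in the same direction. Of the pump, the a subunits Atp6v0a1 and Tcirg1 rose by 1.26 (SE 0.14) and 0.84 (SE 0.14), and Atp6v1c1 of the cytosolic part by 0.81 (SE 0.14). Autophagy genes moved little as a list: of 41 measured, 4 rose and 5 fell, with a median of -0.01. The receptor Sqstm1, also called p62, rose by 0.97 (SE 0.09, adjusted p = 1.27e-05) and the ATG8 family member Gabarap by 0.74 (SE 0.09), while the receptor Tax1bp1 fell by 0.52 (SE 0.09). The lower count of that list was 2 without GMP WT replicate 1 or 2 and 3 without GMP WT replicate 3.

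TFEB and TFE3 bind the palindrome CACGTG, and the longer form TCACGTGA is known from the promoters of lysosomal genes. Promoter windows of 300 bases (250 before to 50 after the gene start, RefSeq, GRCm38.p6) were at hand for 89 of the 112 genes of the 4 lysosomal lists. TCACGTGA, which reads the same on both strands and contains CACGTG, was found in 11 of their 105 windows (10.5%), against 1.32% of 19176 windows of all measured genes, and CACGTG in 23 (21.9%), against 8.24%. Of the 11 genes with the longer form 9 rose, namely Atp6v0d1, Atp6v0e, Atp6v1a, Clcn7, Cln3, Ctsa, Ctsd, Gla and Mcoln1, and Slc36a1 and Sumf1 did not pass. In the 4 lists with or without the motif, 18 of 40, 9 of 17, 12 of 21 and 18 of 34 genes rose. The call on Atp6v0d1 ended without GMP KO replicate 3, GMP WT replicate 1 or GMP WT replicate 3 (adjusted p 0.0731, 0.0539 and 0.0981). That on Atp6v0e ended without GMP KO replicate 1 or 3 (0.0988 and 0.113) and without GMP WT replicate 1, 2 or 3 (0.113, 0.0978 and 0.143). The windows of the pair with the smallest p among those that rose are printed here, Mcoln1 at chr8:3500269-3500568 on the plus strand and Ctsd at chr7:142387778-142388077 on the minus strand, with the motif in capitals.
Mcoln1: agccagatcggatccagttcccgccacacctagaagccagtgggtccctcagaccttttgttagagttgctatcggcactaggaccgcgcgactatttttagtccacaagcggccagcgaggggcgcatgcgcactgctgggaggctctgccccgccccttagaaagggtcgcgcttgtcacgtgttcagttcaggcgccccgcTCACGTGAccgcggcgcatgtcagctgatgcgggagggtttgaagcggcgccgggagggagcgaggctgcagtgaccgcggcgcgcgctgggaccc
Ctsd: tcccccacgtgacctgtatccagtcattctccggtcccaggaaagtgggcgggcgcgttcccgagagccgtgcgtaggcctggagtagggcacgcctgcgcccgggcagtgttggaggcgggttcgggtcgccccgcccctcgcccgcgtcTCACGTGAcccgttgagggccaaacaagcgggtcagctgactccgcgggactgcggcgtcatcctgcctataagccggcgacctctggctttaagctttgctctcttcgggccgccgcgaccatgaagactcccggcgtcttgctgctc
A match describes the letters of the window and does not show that a factor binds there. The motif is known from lysosomal genes, so its frequency in these windows is a description of the lists.

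The genes of mTORC1 and of nutrient sensing upstream of it that passed were lower in KO. Of 30 genes of mTORC1, TSC, GATOR and nutrient sensing, 0 rose and 5 fell, with a median of -0.20. Over all genes 5.78% rose and 10.3% fell. The lower count of the list ranged from 2 without GMP WT replicate 2 to 8 without GMP KO replicate 3. It was 3 without GMP WT replicate 1 or 3, and 1 when only the 6 GMP arrays were fitted. The mean of that list was 7.47 to 7.70 in the KO arrays and 7.79 to 7.84 in the WT arrays, and 23 of the 30 read below 0. The kinase subunit of mTORC1 itself was among the 5 that fell. Mapkap1, a subunit of the related complex mTORC2, fell by 0.54 (SE 0.11, adjusted p = 0.00533). Of 28 genes that SREBP factors drive for sterol and fatty acid synthesis, 5 fell and 1 rose, with a median of -0.34, and 9 fell without GMP KO replicate 2. Fdps, which makes farnesyl pyrophosphate, fell by 1.11 (SE 0.14, adjusted p = 1.68e-04), and Sqle, squalene epoxidase, by 0.79 (SE 0.14). Of 26 genes driven by ATF4 for amino acid supply, 9 fell and 1 rose, with a median of -0.18, and 5 fell without GMP KO replicate 1, GMP WT replicate 2 or GMP WT replicate 3. The enzymes of serine and one-carbon metabolism were among them: Mthfd2 fell by 1.43 (SE 0.18), Phgdh by 0.83 (SE 0.11) and Psat1 by 0.65 (SE 0.11).

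Macrophage genes had the highest median of the 53 lists, 0.99, and 16 of 30 rose and 1 fell. Without GMP KO replicate 1, 18 rose and 1 fell. The mean of the list was 7.55 to 7.87 in the KO arrays and 6.27 to 6.33 in the WT arrays. Apoe, the lipid carrier secreted by macrophages, read 12.48, 12.46 and 12.48 in KO and 8.97, 9.58 and 8.80 in WT, and rose by 3.36 (SE 0.25, adjusted p = 2.4e-06). The scavenging lysosomal protein Cd68 rose by 2.87 (SE 0.21), the C1q chains C1qb and C1qa by 4.26 (SE 0.36) and 1.73 (SE 0.23), the mannose receptor Mrc1 by 3.10 (SE 0.38) and the heme oxygenase Hmox1 by 2.43 (SE 0.20). Lpl, lipoprotein lipase, was the member that fell, by 1.00 (SE 0.19). Several genes that define resident macrophages did not pass: Adgre1, a surface receptor, read 6.58, 7.66 and 7.77 in KO and 6.84, 6.89 and 6.62 in WT (0.56, adjusted p = 0.16), although without GMP KO replicate 1 it rose by 0.94 (adjusted p = 0.000814), and not past the threshold were likewise Vcam1 (-0.09), Marco (0.16), Folr2 (0.18) and Cd163 (-0.35), of which Cd163 was lower past the threshold without GMP KO replicate 3 and under some other settings, repeated quantile normalization among them. Of the 30 genes, 12 read above the median gene already in WT GMP. In bulk RNA of sorted cells, a share of macrophages within the gate and higher expression in each progenitor cannot be told apart, and the same holds for the lists of lysosome, lipid, clearance and cytokine genes that follow the macrophage list.

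Receptors for dead cells and lipids rose with the macrophage genes. Of 28 genes of TAM receptors and dead cell clearance 12 rose and 3 fell, with a median of 0.29, and 14 rose without GMP KO replicate 1. The 3 that fell were 0 without GMP WT replicate 2 and 1 without GMP WT replicate 3 or GMP KO replicate 3. Gas6, the ligand that bridges dead cells to the TAM receptors, read 8.52, 9.14 and 9.12 in KO and 5.34, 5.60 and 5.74 in WT, and rose by 3.37 (SE 0.18, adjusted p = 1.32e-07). The receptors Mertk and Axl rose by 2.51 (SE 0.33) and 1.01 (SE 0.23), and the phosphatidylserine receptor Cd300lf by 3.68 (SE 0.32). Of 21 genes of cholesterol efflux and lipid storage 11 rose and 1 fell, with a median of 0.73, and without GMP KO replicate 1 the counts were 13 and 1. They were 9 and 1 without GMP WT replicate 2. The exporters Abcg1 and Abca1 rose by 0.78 (SE 0.12) and 1.38 (SE 0.24), the fatty acid carriers Fabp4 and Fabp5 by 3.54 (SE 0.32) and 1.43 (SE 0.21), the lipid receptor Trem2 by 1.76 (SE 0.28) and the lipid droplet protein Plin2 by 0.98 (SE 0.18).

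CD200 receptors and paired receptors of myeloid cells moved in both directions. Of 31 measured, 15 rose and 4 fell, with a median of 0.74, and 18 rose and 4 fell without GMP KO replicate 1. Cd200r4 read 8.04, 8.29 and 8.30 in KO and 3.69, 4.13 and 4.10 in WT, and rose by 4.24 (SE 0.17, adjusted p = 1.53e-08). Lilrb4a rose by 4.22 (SE 0.35) and Cd300c2 by 2.34 (SE 0.25). Clec12a, an inhibitory lectin of granulocytes and monocytes, fell by 1.41 (SE 0.17), and Siglecg by 0.89 (SE 0.12). Of 8 Fc gamma receptors and their signalling chains 4 rose and none fell, with a median of 0.53. The inhibitory Fcgr2b rose by 0.69 (SE 0.14) and the shared chain Fcer1g by 0.98 (SE 0.13). Fcgr3, one of the receptors stained for the sort, read 10.37, 10.72 and 10.43 in KO and 10.29, 10.11 and 9.94 in WT and did not pass (0.40, adjusted p = 0.286).

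Genes of an activated state rose as well. Of 24 immediate early transcription factors 13 rose and 1 fell, with a median of 0.62, and without GMP KO replicate 1 the counts were 14 and 2. They were 10 and 1 without GMP WT replicate 2. Egr1, an early target of ERK signalling, read 8.32, 8.26 and 8.83 in KO and 5.71, 5.58 and 5.92 in WT, and rose by 2.73 (SE 0.39, adjusted p = 4.1e-04). Fos and Jun, which form AP-1, rose by 2.69 (SE 0.41) and 2.41 (SE 0.39), and the repressors Bhlhe40 and Bhlhe41 by 3.26 (SE 0.20) and 4.42 (SE 0.30). Klf4, which drives monocyte formation, was the member that fell, by 0.80 (SE 0.14). The time taken by the sort is not stated, and its part in these genes was not tested. Of 18 genes of ERK feedback 4 rose and 2 fell: the ERK phosphatases Dusp6 and Dusp4 rose by 1.13 (SE 0.13) and 1.18 (SE 0.14), the stress phosphatase Dusp1 by 2.38 (SE 0.40), and the kinase Map2k1, which encodes MEK1, fell by 0.82 (SE 0.18).

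Of 36 NF-kB subunits, inhibitors and inflammatory cytokines 14 rose and none fell, with a median of 0.51, the same counts as without GMP KO replicate 1. The higher count was 10 without GMP WT replicate 2. The feedback inhibitor Nfkbia rose by 1.02 (SE 0.12, adjusted p = 7.66e-05), the monocyte chemokine Ccl2 by 2.94 (SE 0.23), Ccl4 by 1.84 (SE 0.35) and the subunit Rel by 0.76 (SE 0.16). The interleukin Il1a read 4.69, 5.63 and 7.10 in KO and 3.86 to 4.02 in WT, so its rise of 1.86 (SE 0.43) came with a wide spread among the KO arrays. Of 30 myeloid cytokine receptors and ligands 14 rose and 1 fell, with a median of 0.45, and 16 rose without GMP KO replicate 1. In contrast, 10 rose without GMP WT replicate 2 or 3 and 11 without GMP KO replicate 2. Il10rb, a chain of the IL-10 receptor, rose by 1.71 (SE 0.13, adjusted p = 2.69e-06), the TGF-beta receptor Tgfbr1 by 1.15 (SE 0.11) and Csf1, the growth factor of macrophages, by 1.67 (SE 0.19). Csf1r, its receptor, read 8.40, 9.51 and 9.49 in KO and 9.20, 9.28 and 9.18 in WT and did not pass (-0.09, adjusted p = 0.888).

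**Figure D3:**
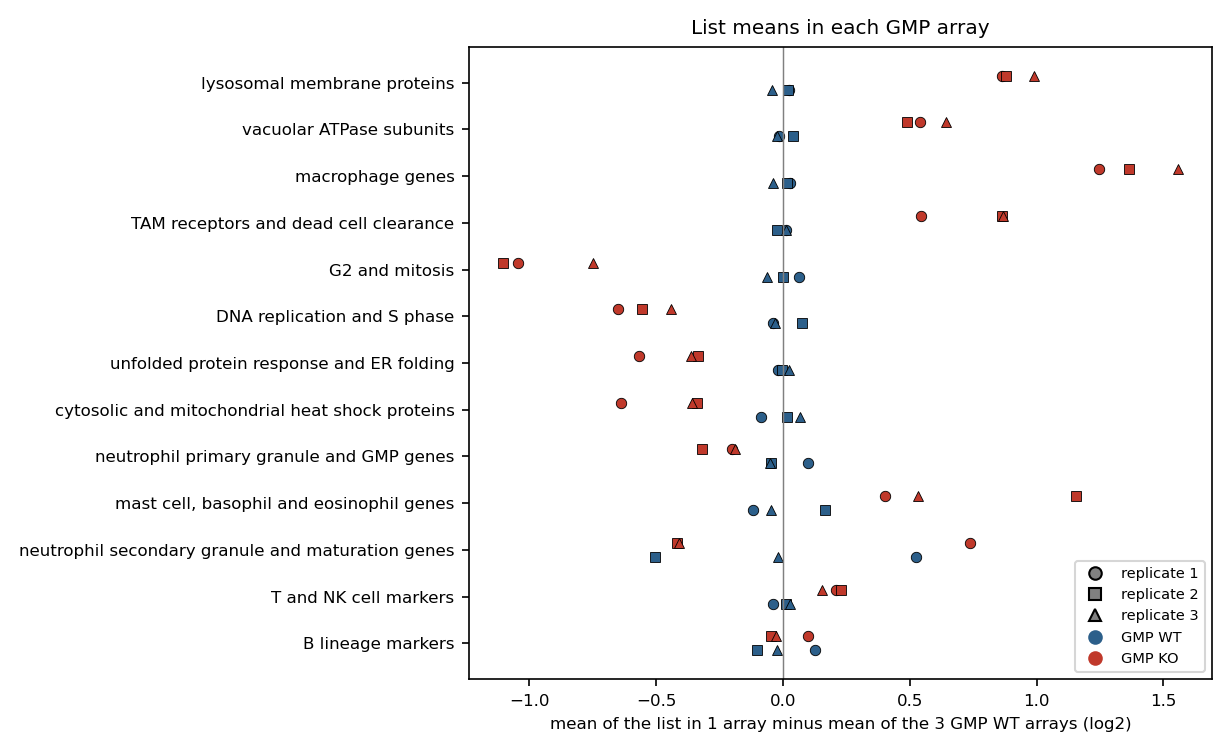
Mean of 13 gene lists in each GMP array minus the mean of the 3 GMP WT arrays (log2, horizontal axis), with WT arrays in blue, KO arrays in red and a marker shape for each replicate. Macrophage and lysosomal lists were higher and lists of cell division and folding lower in all 3 KO arrays, while the secondary granule list ran from 7.22 to 8.38 in KO and from 7.14 to 8.17 in WT and the KO and WT arrays of the B lineage list overlapped.

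Granule genes of GMP were more often lower than higher. Of 26 genes of primary granules and GMP 7 fell and 3 rose, with a median of -0.36, and without GMP KO replicate 1 the counts were 8 and 2. Leaving out GMP WT replicate 2 left 1 of the 3 that rose. Prss57, a serine protease of neutrophil granules, read 8.33, 8.73 and 9.02 in KO and 10.26, 10.11 and 9.94 in WT, and fell by 1.41 (SE 0.15, adjusted p = 5.1e-05). The protease inhibitor Serpinb1a, which protects granulocytes from their own proteases, fell by 0.74 (SE 0.08) and Nkg7 by 0.52 (SE 0.10). Sirpa, the receptor for the signal that spares cells from phagocytosis, rose by 1.24 (SE 0.14). Mpo (-0.16), Elane (-0.45) and Ctsg (-0.16) did not pass, so these main granule enzymes were not distinguishable between the groups. In the list of secondary granules and maturation 1 of 30 rose and 2 fell, with a median of -0.02 and of -0.35 without GMP KO replicate 1. Ltf, lactoferrin, read 8.60, 6.14 and 5.96 in KO and 9.25, 6.64 and 7.84 in WT, a spread within each group that exceeds the difference of the means.

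Lineage regulators changed selectively. Of 32 myeloid transcription factors 8 rose and 3 fell, with a median of 0.16. Irf8, which directs GMP to monocytes and dendritic cells, read 8.76, 8.94 and 9.0 in KO and 10.01, 10.11 and 10.15 in WT, and fell by 1.19 (SE 0.13, adjusted p = 7.44e-05). Maf, a macrophage factor, rose by 2.05 (SE 0.14), the nuclear receptor Rxra by 1.04 (SE 0.12) and Id2, an inhibitor of helix-loop-helix factors, by 1.19 (SE 0.19). Spi1 (PU.1, -0.08) and Cebpa (0.11), the factors that set up the granulocyte and monocyte lineages, did not pass.

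Monocyte genes split. Of 27 measured, 8 rose and 6 fell, with a median of 0.09, and without GMP KO replicate 1 the counts were 9 and 5. The lectin Lgals3 rose by 3.60 (SE 0.36) and the scaffold Ahnak by 2.47 (SE 0.24), while the chemokine receptor Cx3cr1 fell by 1.00 (SE 0.15) and Ms4a4c by 1.73 (SE 0.31). Ccr2, the receptor by which monocytes leave the marrow, read 7.92, 8.62 and 8.66 in KO and 9.04, 9.29 and 9.16 in WT without passing (-0.77, adjusted p = 0.096), and it passed when only the GMP arrays were fitted. Dendritic cell and MHC class II genes also went both ways, with 5 of 27 higher and 5 lower. The MHC chains H2-Aa and H2-Ab1 fell by 1.55 (SE 0.22) and 1.02 (SE 0.22), their chaperone Cd74 fell by 1.00 (SE 0.23), and Cd83, which keeps class II molecules at the surface, rose by 2.23 (SE 0.18).

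Genes of other lineages were followed as markers of other cells. Of 27 genes of mast cells, basophils and eosinophils 8 rose and 2 fell, with a median of 0.56, and 13 rose and 1 fell without GMP KO replicate 1. The higher count was 6 without GMP KO replicate 2 or any 1 of the GMP WT arrays. With single arrays left out, the median ranged from 0.24 to 0.85. None of that list fell without GMP WT replicate 1 or 2, and 1 fell without GMP KO replicate 2. The basophil proteases Mcpt8 and Prss34 rose by 1.64 (SE 0.33) and 2.02 (SE 0.46), and Prss34 read 10.17, 11.92 and 10.23 in KO and 8.55, 9.15 and 8.56 in WT, with GMP KO replicate 2 the highest. Of 19 megakaryocyte and platelet genes 4 rose and 2 fell, with a median of 0.07, and 2 rose without GMP WT replicate 1, while none fell without GMP WT replicate 2 or 3 1 fell without GMP WT replicate 1, GMP KO replicate 2 or GMP KO replicate 3, and 3 fell without GMP KO replicate 1. Of 27 erythroid genes none rose and 4 fell, with a median of -0.12, and 2 fell without GMP WT replicate 1 or 2. The carbonic anhydrase Car2 fell by 1.15 (SE 0.15, adjusted p = 2.66e-04). Of 19 T and NK cell markers 2 rose and 2 fell, and the mean of the list was 5.86 to 5.94 in KO and 5.67 to 5.74 in WT. Of 17 B lineage markers 2 rose and 2 fell, and of 18 endothelial and stromal markers none rose and 1 fell. Among 32 lymphoid priming genes 3 rose and 5 fell: Il7r, the receptor for IL-7, read 8.99, 8.60 and 9.65 in KO and 4.60, 4.36 and 4.28 in WT, and the adaptor Blnk rose by 2.37 (SE 0.23). The lower count of that list was 2 without GMP WT replicate 1 or 2 and 3 without GMP KO replicate 3.

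Interferon genes did not move in 1 direction, although pIpC had been given to all mice. Of 46 genes of the type I response 5 rose and 6 fell, with a median of -0.03, and 3 rose without GMP WT replicate 1 or 3. Ifitm1, a membrane protein that blocks viral entry, rose by 0.99 (SE 0.13, adjusted p = 2.38e-04) and the nucleotide kinase Cmpk2 fell by 0.69 (SE 0.10). In the HIN-200 family of DNA sensors opposite changes stood side by side. Ifi209 read 5.26, 5.94 and 6.44 in KO and 9.99, 9.96 and 9.83 in WT, whereas Ifi207 read 7.35, 9.12 and 9.44 in KO and 5.71, 5.34 and 5.72 in WT and rose by 3.05 (SE 0.43, adjusted p = 3.74e-04). These are related genes of 1 cluster, and whether probes are shared between them was not tested. The list of stem cell and multipotent progenitor markers had 6 of 38 higher and 2 lower, with a median of 0.11. Without GMP KO replicate 1 these counts were 8 and 1, without GMP KO replicate 2 they were 5 and 5, and no member was lower without GMP KO replicate 3 or any 1 of the 3 GMP WT arrays. The cytokine receptor Flt3 rose by 1.26 (SE 0.14) and the transcription cofactor Eya1 by 2.78 (SE 0.17).

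Genes of cell division fell almost throughout. Of 73 genes of G2 and mitosis 69 fell and none rose, with a median of -1.01, and 68 fell without GMP KO replicate 1. Of 51 genes of DNA replication and S phase 40 fell and none rose, with a median of -0.58. For these, 42 fell without GMP KO replicate 1 and 29 without GMP WT replicate 2. Of 37 genes of homologous recombination and the Fanconi pathway 25 fell and none rose, with a median of -0.46, and 23 fell without GMP KO replicate 1 and 16 without GMP WT replicate 2. The mean of the G2 and mitosis list was 7.88 to 8.23 in KO and 8.92 to 9.05 in WT, so that the KO arrays were low as a group and the WT arrays lay close together. A smaller share of cycling cells and less RNA of these genes in each cell cannot be told apart here.

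Top2a, the topoisomerase of condensing chromosomes, read 9.78, 9.85 and 10.16 in KO and 11.12, 11.08 and 11.07 in WT, and fell by 1.16 (SE 0.12, adjusted p = 2.93e-05). A further, dimmer probe set of Top2a did not move (0.06, adjusted p = 0.909). The spindle assembly checkpoint kinase Bub1b fell by 1.06 (SE 0.10), the spindle factor Tpx2 by 1.19 (SE 0.13), the chromokinesin Kif22 by 1.01 (SE 0.09) and the proliferation antigen Mki67 by 0.84 (SE 0.13). Cyclin A2 (Ccna2) fell by 1.00 (SE 0.13) and its partner Cdk1 by 0.78 (SE 0.11). In S phase, the flap endonuclease Fen1 fell by 1.05 (SE 0.14), the GINS subunit Gins3 by 1.22 (SE 0.16) and the helicase subunits Mcm2 and Mcm5 by 0.59 (SE 0.11) and 0.53 (SE 0.10). In repair, the Holliday junction resolvase Gen1 read 7.16, 7.11 and 7.43 in KO and 8.92, 8.96 and 8.90 in WT, and Brip1, Brca1 and Chek1 fell by 0.99 (SE 0.13), 0.92 (SE 0.14) and 0.81 (SE 0.11). The decreases were thus larger for mitotic genes than for replication genes by their medians, -1.01 and -0.58, a difference that was not tested.

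The element TTTGAA is the core of the cell cycle homology region known from promoters of late cell cycle genes. On either strand it was found in 47 of 68 windows of the G2 and mitosis genes (69.1%), in 10 of 51 windows of the replication and S phase genes (19.6%) and in 14.8% of all 19176 windows. Of the 44 G2 and mitosis genes with the letters, 42 fell, and in the whole list 69 of 73 fell. The list holds known late cell cycle genes, so the share of windows with the letters describes the list. The window of Kif22, the gene with the smallest p among them, lies at chr7:127042371-127042670 on the minus strand of GRCm38.p6 and holds the letters 2 times in their reverse form, shown in capitals.
Kif22: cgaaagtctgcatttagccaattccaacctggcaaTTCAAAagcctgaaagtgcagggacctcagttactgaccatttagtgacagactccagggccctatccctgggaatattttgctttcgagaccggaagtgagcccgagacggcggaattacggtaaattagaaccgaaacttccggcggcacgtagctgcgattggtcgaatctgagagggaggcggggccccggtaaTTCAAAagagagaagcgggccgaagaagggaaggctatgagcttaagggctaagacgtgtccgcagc

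Brakes of the cycle did not rise as a list by their median, 0.04, against 0.01 over all genes. Of 29 CDK inhibitors and antiproliferative genes 6 rose and 3 fell, against 5.78% and 10.3% of all genes. The share that rose was thus above that of all genes. The higher count was 3 without GMP WT replicate 1 or 2. The stress gene Gadd45g rose by 1.44 (SE 0.16, adjusted p = 8.18e-05), Gadd45a by 0.71 (SE 0.10) and the antiproliferative Btg2 by 1.41 (SE 0.27), while the CDK4 and CDK6 inhibitor Cdkn2c fell by 0.97 (SE 0.12). Of the lower count, 5 fell without GMP KO replicate 2 or 3. In the BCL2 family of 16 genes 4 rose and 3 fell. The guardians Bcl2l1 and Mcl1 rose by 1.01 (SE 0.12) and 0.77 (SE 0.12), so did the death-promoting Pmaip1 (1.15, SE 0.17) and Bcl2l11 (0.67, SE 0.14), and Bcl2 fell by 0.49 (SE 0.10).

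Protein folding genes of the endoplasmic reticulum and of the cytosol fell. Of 23 genes of the unfolded protein response and ER folding 14 fell and 1 rose, with a median of -0.40, and 13 fell without GMP KO replicate 1. Hyou1, a large chaperone of the ER, read 8.91, 9.14 and 9.01 in KO and 10.12, 10.12 and 10.21 in WT, and fell by 1.13 (SE 0.10, adjusted p = 1.38e-05). The ER chaperones Hspa5 (BiP), Hsp90b1 and Dnajc3 fell by 0.75 (SE 0.14), 0.56 (SE 0.10) and 1.01 (SE 0.13), and the disulfide isomerase Pdia6 by 0.91 (SE 0.10). Ddit3 (CHOP), the stress factor that acts late in this response, was the member that rose, by 0.68 (SE 0.12). Of 22 heat shock proteins 12 fell and none rose, with a median of -0.43, and the same number, 12, fell without GMP KO replicate 1. Hsph1, a partner of Hsp70, read 7.96, 8.47 and 8.17 in KO and 9.60, 9.76 and 10.08 in WT, and fell by 1.61 (SE 0.19). The related Hspa4l fell by 0.86 (SE 0.12), the adaptor Stip1 by 0.64 (SE 0.11) and Chordc1, a partner of Hsp90, by 0.75 (SE 0.15).

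Known elements of these responses were searched in the promoter windows of both lists. The ER stress response element, CCAAT followed at its fixed spacing by CCACG, was searched on both strands and was found in 7 of 20 windows of the ER folding list (35.0%) and in 0.115% of all windows. All 7 genes, Calr, Canx, Creld2, Dnajc3, Hsp90b1, Hspa5 and Pdia6, were among the 14 that fell. The calls on Calr and Canx ended when only the 6 GMP arrays were fitted (adjusted p = 0.0529 and 0.0717). The heat shock element, GAA, TTC and GAA with a pair of free bases between them, was searched on both strands and was found in 5 of 27 windows of the heat shock list (18.5%) and in 0.490% of all windows, and 3 of the 4 genes with it were among the 12 that fell. The windows of the pair of ER folding genes with the smallest p among those that hold the element, Creld2 at chr15:88819396-88819695 and Pdia6 at chr12:17266339-17266638, both on the plus strand, and of Hsph1 at chr5:149636287-149636586 on the minus strand (all GRCm38.p6) are shown with the elements in capitals.
Creld2: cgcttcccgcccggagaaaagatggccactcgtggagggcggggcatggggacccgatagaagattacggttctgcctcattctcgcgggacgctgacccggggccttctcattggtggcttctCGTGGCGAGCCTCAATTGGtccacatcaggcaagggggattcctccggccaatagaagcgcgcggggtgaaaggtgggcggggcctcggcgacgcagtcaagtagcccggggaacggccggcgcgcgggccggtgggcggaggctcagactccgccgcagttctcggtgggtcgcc
Pdia6: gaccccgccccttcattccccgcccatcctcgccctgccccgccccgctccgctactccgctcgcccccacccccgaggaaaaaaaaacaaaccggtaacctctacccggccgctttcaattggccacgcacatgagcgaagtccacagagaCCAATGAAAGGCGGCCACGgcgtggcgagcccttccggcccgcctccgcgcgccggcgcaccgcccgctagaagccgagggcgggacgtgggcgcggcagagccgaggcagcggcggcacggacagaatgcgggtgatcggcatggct
Hsph1: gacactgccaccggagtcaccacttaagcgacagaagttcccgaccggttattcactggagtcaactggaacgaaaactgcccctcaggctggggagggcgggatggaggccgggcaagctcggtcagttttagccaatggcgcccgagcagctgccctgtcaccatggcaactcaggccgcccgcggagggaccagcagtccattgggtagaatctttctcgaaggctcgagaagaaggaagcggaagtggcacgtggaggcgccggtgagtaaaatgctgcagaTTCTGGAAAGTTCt
In Creld2 and Hsph1 the element is read on the opposite strand. The elements belong to gene families that were listed for their known regulation, so their frequency in these windows is a description of the lists.

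Ribosome biogenesis genes fell by smaller amounts, and few genes of the respiratory complexes passed, a share near the 10.3% of all genes that were lower. Of 38 ribosome biogenesis and Myc response genes 17 fell and none rose, with a median of -0.32. The count was 15 without GMP KO replicate 1, 5 without GMP WT replicate 2, 11 without GMP WT replicate 3, 5 after repeated quantile normalization and 6 when only the GMP arrays were fitted. The pseudouridine synthase Dkc1 read 9.89, 10.04 and 9.95 in KO and 10.33, 10.57 and 10.54 in WT, and fell by 0.52 (SE 0.10). Of 57 nuclear-encoded genes of respiratory complexes I to IV 8 fell and none rose, with a median of -0.20, and 2 fell and 2 rose after repeated quantile normalization. The lower count was 5, 17, 3, 2 and 4 without GMP KO replicate 1, GMP KO replicate 3, GMP WT replicate 1, GMP WT replicate 2 and GMP WT replicate 3. Of 24 genes of glucose uptake and glycolysis 3 rose and 4 fell, with 2 lower without GMP WT replicate 2 or 3. The enolase Eno2 rose by 1.03 (SE 0.11) and the lactate dehydrogenase Ldhb fell by 0.92 (SE 0.16). Txnip, which limits glucose uptake, rose by 1.12 (SE 0.12).

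Metal handling changed at single genes. The metallothionein Mt2, which binds zinc and copper, read 11.15, 10.61 and 10.90 in KO and 7.22, 6.22 and 5.93 in WT, and rose by 4.43 (SE 0.49, adjusted p = 5.92e-05). Its neighbour Mt1 read 11.82, 11.58 and 11.81 in KO and 10.40, 10.06 and 9.89 in WT, and rose by 1.62 (SE 0.31). Of 15 metallothionein and zinc transport genes 2 rose and 2 fell, so the remaining members were not distinguishable or lower. The transferrin receptor Tfrc, which brings iron into dividing cells, read 9.05, 9.16 and 9.44 in KO and 10.14, 10.04 and 10.05 in WT, and fell by 0.86 (SE 0.11, adjusted p = 2.36e-04).

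The effect in GMP was then set against the effect of the same deletion in LSK cells, through the difference of the effects in the same fit (GMP minus LSK). Of 19937 genes 1588 differed (7.97%), 527 of them above 0 (2.64%) and 1061 below 0 (5.32%). In all, 401 genes passed in both cell types and 65 of these changed in opposite directions. Without GMP WT replicate 2 the count of genes that differed was 800, and without GMP WT replicate 3 it was 1012. Of the G2 and mitosis list 35 of 73 differed, all below 0, with a median effect of -0.23 in LSK against -1.01 in GMP. The ER folding list had a median of 0.16 in LSK and -0.40 in GMP, and 13 of 23 members differed, all below 0. The heat shock list had 12 of 22 members below 0 and the ribosome biogenesis list 23 of 38, with an LSK median of 0.28 for the last against -0.32 in GMP.

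**Figure D4:**
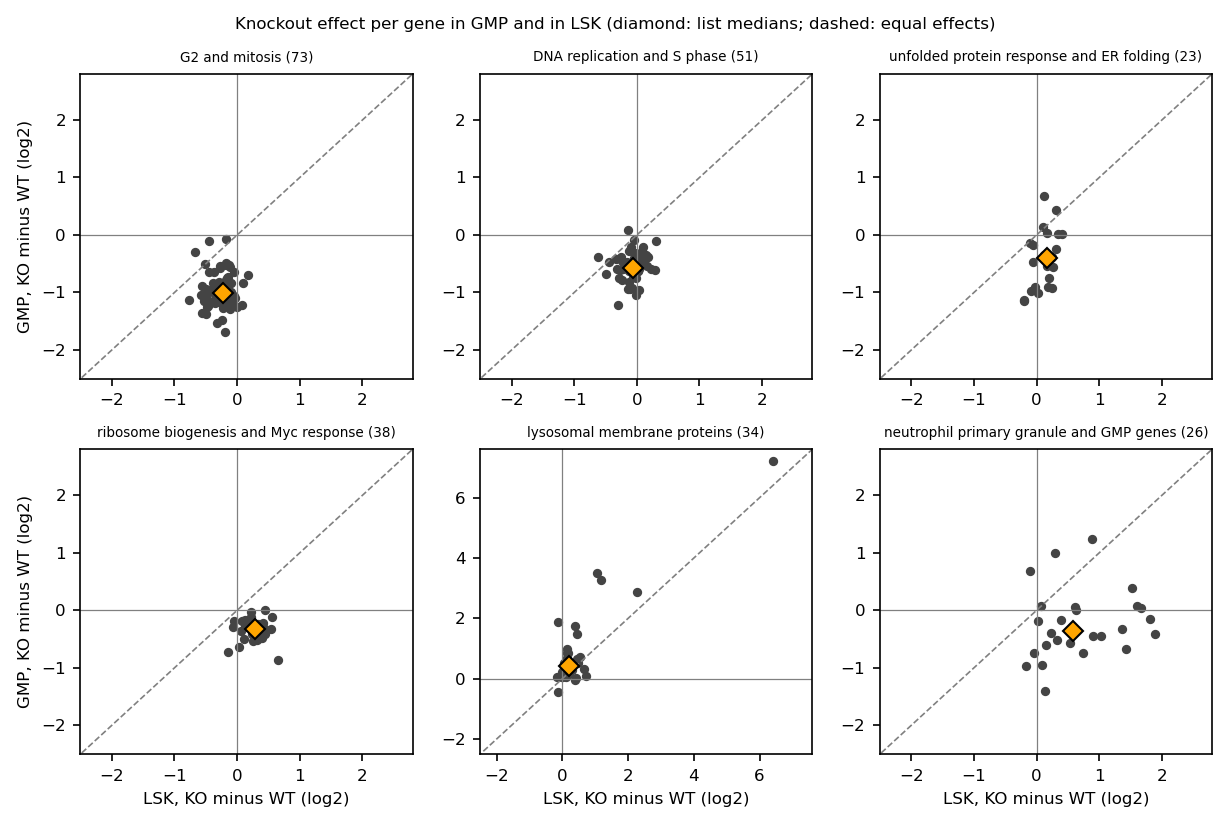
Knockout effect of each gene (KO minus WT, log2) in LSK (horizontal axis) and GMP (vertical axis) for 6 gene lists, with an orange diamond at the list medians and a dashed line where the effects are equal. The G2 and mitosis genes lie below the line, with medians of -0.23 in LSK and -1.01 in GMP, the ribosome biogenesis genes have medians of 0.28 and -0.32, and the lysosomal membrane proteins have medians of 0.20 and 0.42.

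Lists with the opposite difference were fewer. Of 34 lysosomal membrane proteins 8 differed, all above 0. The other lysosomal lists did not share this. The hydrolases and activators had a median of 0.32 in both cell types, with 3 members above 0 and 2 below. Cathepsins and legumain had medians of 1.07 in LSK and 0.61 in GMP, with 1 member above 0 and 3 below. The vacuolar ATPase had medians of 0.32 in LSK and 0.34 in GMP, and none of its subunits differed. Of 46 interferon genes 15 were above 0 and 1 below, and of 38 stem cell markers 13 were above 0. For interferon genes and stem cell markers the LSK medians were -0.42 and -0.40, and the GMP medians -0.03 and 0.11. The granule genes of GMP had a median of 0.58 in LSK and -0.36 in GMP, and 15 of 26 differed, all below 0. For the transcription factor Irf8 the effect was -1.19 in GMP and 0.29 in LSK, and the difference of -1.49 had an adjusted p of 0.0014.

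Of the genes named below, some had an LSK effect of the same sign but smaller and others one of the opposite sign. Emp1, a membrane protein of the claudin superfamily, read 9.18, 8.73 and 9.05 in GMP KO and 5.63, 5.81 and 6.07 in GMP WT, a rise of 3.15 (SE 0.15) against 0.36 in LSK. Hacd4, an enzyme of very long chain fatty acid synthesis, rose by 1.66 (SE 0.16) in GMP and was changed by -1.19 in LSK. Rgl1, a factor that activates Ral GTPases, rose by 3.32 (SE 0.18) against 0.44 in LSK, and Tns1, a tensin of focal adhesions, by 2.75 (SE 0.14) against 0.72. Tns1 has 6 probe sets, of which 5 rose by 0.88 to 2.75 and 1 did not pass (0.26). Below 0, the receptor for hepatocyte growth factor, Met, read 7.41, 7.12 and 7.55 in GMP KO and 8.88, 8.95 and 8.85 in GMP WT, and fell by 1.53 (SE 0.14), with an effect of 0.64 in LSK. The glutamate receptor Gria3 fell by 1.16 (SE 0.09) in GMP, with 0.25 in LSK, and Nucb2, a calcium-binding protein, by 1.52 (SE 0.20), with 0.73 in LSK. For these genes the adjusted p of the difference lay between 0.000142 in Emp1 and 0.00134 in Nucb2.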

How the data were processed

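Sorted GMP and LSK cells were measured on 12 arrays, 3 per group. The deposited values are log2 RMA values, which the authors had background-corrected, normalized and summarized per probe set, per the submitters' processing notes; the version is not given in the sources used here. Of 34760 probe sets, 11799 are unnamed here, 1321 carry several symbols and 21640 carry 1. The probe set with the highest mean over all arrays stood for each of 19937 genes. KO and WT were compared with limma 3.58.1 (R 4.3.3) in 1 fit of the 4 groups, with 8 residual and 5.161 prior degrees of freedom, Benjamini-Hochberg adjustment over all genes and a threshold of 0.05. The fit was tested on simulated data. The number of arrays limits the precision. Named genes came from a rule that took the Lamtor genes, the 20 largest changes in each direction without overlap of arrays, from each list at most 6 members per direction, by p, and 2 that did not pass, and the 10 smallest p of the difference between GMP and LSK in each direction. Of 189 named genes, 35 fell outside that rule and were chosen after their values were seen. The members and the 53 gene lists were chosen with earlier results of these data known. Promoter windows came from RefSeq (GRCm38.p6) and were at hand for 15613 genes. Alternatives were repeated quantile normalization, centring, array weights, a trended robust fit, leaving out dim genes, the mean of probe sets, the GMP arrays alone, a replicate block and leaving out each array.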

Additional observations from a re-analysis of the deposited data

Results flagged for a closer look

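The knockout effect differed between GMP and LSK in 527 genes above 0 and in 1061 genes below 0, by the difference of the effects (GMP minus LSK, log2) in the fit of all 12 arrays, with limma's adjusted p under 0.05. The value of that difference is given for each such gene named in the text. Genes that rose in GMP and rose less, or read lower, in LSK KO had differences of Rgl1 (2.88), Hacd4 (2.85), Emp1 (2.79), Il7r (2.75), Gas6 (2.68), Mcoln3 (2.46), Hmox1 (2.34), Eya1 (2.22), Bhlhe41 (2.14), Mrc1 (2.13), Fabp4 (2.13) and C1qb (2.06). Further values in this direction were those of Tns1 (2.03), Mcoln2 (2.02), Fnip2 (2.01), Blnk (1.93), Lilrb4a (1.76), Apoe (1.69), Cd300lf (1.61), Ahnak (1.51), Cd83 (1.47), Btg2 (1.46), Npc1 (1.36) and Txnip (1.28). Further values in this direction were those of Ccl2 (1.26), Psap (1.25), Flt3 (1.08), Abcg1 (0.92), Il10rb (0.92), Rxra (0.88), Nfkbia (0.86), Ifitm1 (0.86), Maf (0.86), Mcoln1 (0.85), Bcl2l1 (0.83) and Gadd45g (0.82). Further values in this direction were those of Gabarap (0.72), Eno2 (0.70), Sqstm1 (0.68) and Tfeb (0.49). Above 0, without a call in GMP, lay Tfe3 (0.55). Genes that fell in GMP and had a less negative or positive effect in LSK were Ifi209 (-3.19), Nucb2 (-2.25), Met (-2.18), Prss57 (-1.55), Ms4a4c (-1.53), Tfrc (-1.51), Irf8 (-1.49), Gen1 (-1.45), Gria3 (-1.40), Lpl (-1.27), Mthfd2 (-1.16) and Pdia6 (-1.10). Further values in this direction were those of Dnajc3 (-1.04), Fen1 (-1.04), Phgdh (-1.03), Hsph1 (-0.99), Creld2 (-0.95), Hspa5 (-0.94), Hyou1 (-0.92), Gins3 (-0.92), Psat1 (-0.88), Top2a (-0.87), Nkg7 (-0.85) and Bub1b (-0.85). Further values in this direction were those of Dkc1 (-0.84), Tpx2 (-0.83), Arsb (-0.83), Mcm2 (-0.82), Hsp90b1 (-0.82), Chek1 (-0.80), Klf4 (-0.80), Brca1 (-0.79), Kif22 (-0.76), Cx3cr1 (-0.76), Fdps (-0.76) and Ccna2 (-0.75). Further values in this direction were those of Brip1 (-0.74), Serpinb1a (-0.71), Canx (-0.64), Calr (-0.63), Cdk1 (-0.61), Stip1 (-0.61), Tax1bp1 (-0.60), Bcl2 (-0.54) and Mcm5 (-0.52). A rise in GMP that was smaller than in LSK gave a difference below 0 for Mt1 (-1.94), Fcer1g (-0.80) and Fcgr2b (-0.73). Below 0, without a call in GMP, lay Ccr2 (-2.56), Ctsg (-1.97), Fcgr3 (-1.96) and Cebpa (-1.12).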

How the results depend on the processing

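Against 3212 genes past the threshold, the count was 1778 when the 6 GMP arrays were fitted alone (745 higher, 1033 lower). Of the 3212, 482 also changed by at least 1 on the log2 scale (319 higher, 163 lower), as did 371 of the 1588 genes whose effect differed from LSK. Leaving out each GMP array gave 1853 to 3628 genes (795 to 1257 higher, 1058 to 2371 lower) and 800 to 2006 genes that differed from LSK. GMP WT replicate 2 gave the lowest count of genes past the threshold, 1853. The share of higher genes was 35.9%, against 45.7% after repeated quantile normalization and 24.7% after centring. With a replicate block 3073 genes passed (1105 higher, 1968 lower). Whether the replicate numbers pair samples across groups is not stated. The correlations of same-numbered deviations ran from -0.23 (GMP WT replicate 2 and LSK KO replicate 2) to 0.28 (GMP KO replicate 2 and GMP WT replicate 2). With so few arrays per group, these correlations cannot decide whether the numbers pair the samples. Of the 163 named genes past the threshold, 157 passed in every setting run and 160 with each array left out, and none changed sign. Genes not past the threshold changed sign as follows, and the cause was not tested. Csf1r was 0.055 after repeated quantile normalization, 0.179 with array weights and 0.282 with the 5 GMP arrays other than GMP KO replicate 1 alone, a setting chosen after seeing the data, where Lamtor4 was 0.004. After repeated quantile normalization Spi1 was 0.092 and Slc36a1 0.111. With each GMP array left out in turn, Csf1r ranged from -0.276 to 0.282, Cebpa from -0.074 to 0.255, Lamtor4 from -0.321 to 0.004, Slc36a1 from -0.141 to 0.057 and Vcam1 from -0.267 to 0.105. Counts that were themselves 1 or 2 also moved when single arrays were left out. This held for lists of lysosomal membrane, macrophage, cytokine receptor, secondary granule, B lineage, endothelial, HIN-200, ERK feedback, zinc transport, SREBP and ATF4 genes. Larger counts moved too. The higher count ran from 17 to 21 for lysosomal membrane, 14 to 18 for macrophage and 10 to 16 for cytokine receptor genes. The lower count ran from 4 to 9 for SREBP and 5 to 9 for ATF4 genes. The files give no signal over background, so the precision of dim probe sets is unknown.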
